A study of Mus musculus with 14 samples.

Results

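The HOX and MEOX genes form a set of homeobox genes that record position in the embryo and in cells grown from it. The set held 35 of the 18193 genes measured: 33 genes whose symbol is Hoxa, Hoxb, Hoxc or Hoxd followed by a number, and Meox1 and Meox2. Each gene was represented by the probe set that names only this gene and has the highest mean over all 14 arrays. The rule uses the symbol, but the set was proposed with earlier results of these data known. Other HOX genes were not analysed here, among them Hoxb8 and Hoxd4, which the annotation names only together with other genes.

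HOX genes encode transcription factors that lie in 4 clusters, A to D, and are numbered by paralog group from the 3' to the 5' end of a cluster. In the embryo the low-numbered genes are switched on early and towards the head, the high-numbered genes later and towards the tail or the tip of a limb, and fibroblasts and preadipocytes keep part of this code in culture as a record of where they came from. MEOX genes lie outside the clusters and act in the mesoderm: Meox1 and Meox2 take part in the patterning of somites, and Meox2 is also known for limb muscle and for restraining proliferation in vascular cells.

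The cells were 3T3-L1, an established mouse fibroblast line used as a model of fat cell formation, since hormones induce it to differentiate. Preadipocytes carried a lentivirus with a scrambled sequence (labelled Control) or with siRNA sequences against TP53INP2 (labelled KD TP53INP2), a protein known for its part in autophagosome formation and as a coactivator of thyroid hormone receptors. RNA was taken at day 0, after confluence and before induction, from 3 control and 3 knockdown samples, and at day 7 of differentiation from 4 and 4. Each RNA was amplified, labelled with biotin and hybridised to 1 array. The labels give no strain or age beyond the line and do not state whether replicates are separate cultures. The spread behind every p-value is that between these samples and may be technical. The groups differ in the virus they carry, with 1 knockdown design, so the knockdown and a lasting difference between the lines for another reason cannot be told apart. Fewer cells that express a gene and less RNA per cell cannot be told apart in these bulk samples either.

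Trp53inp2 itself was lower in knockdown cells by a log2 difference of -1.17 ± 0.15 (SE, adjusted p = 0.00205) at day 0 and -1.57 ± 0.13 (adjusted p = 0.000111) at day 7. Adipocyte markers, averaged over 9 genes per array, ran from 7.01 to 8.16 at day 0 and from 9.66 to 11.9 at day 7, and 8 of 9 rose with time in each line. The defining markers of skeletal muscle lay near the bottom of the scale for 9 of 10 genes, those of endothelium for 7 of 8, of chondrocytes and bone for 5 of 6 and of macrophages for 6 of 8. Within each group replicates 1 and 2 lay closer together than other pairs: at day 7 the SD of their difference over genes was 0.11 in control and 0.18 in knockdown cells, against 0.31 to 0.54 for the other pairs. The difference between the 3' and 5' control probe sets of beta-actin, a sign of RNA quality, ran from 3.32 to 3.76 in control and from 2.74 to 3.23 in knockdown arrays at day 0. These day 0 ranges do not overlap, while at day 7 they do (2.82 to 3.48 and 2.70 to 3.37).

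Meox2 was the member with the largest difference between knockdown and control cells, at both days, and Hoxc4 was the HOX gene that was lower at both. The bases before their start sites are shown with those of Hoxd8, a brightly measured HOX gene of another cluster. Hoxd8 was not called in either knockdown comparison of the main fit (a mean per group, no block). At day 7 it was called in 7 of 25 alternative fits, with and without a block. The sequences are the 250 bases before each start in RefSeq annotation of GRCm38.p6, all on the plus strand: Meox2 at chr12:37108290-37108539, Hoxc4 at chr15:103034145-103034394 and Hoxd8 at chr2:74704365-74704614. Capitals mark the match to 1 of 4 short motifs, searched on both strands.
Meox2: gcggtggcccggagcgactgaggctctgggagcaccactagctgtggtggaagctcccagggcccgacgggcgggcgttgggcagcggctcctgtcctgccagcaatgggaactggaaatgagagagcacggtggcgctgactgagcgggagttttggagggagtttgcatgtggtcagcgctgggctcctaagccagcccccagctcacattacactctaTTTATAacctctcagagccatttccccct
Hoxc4: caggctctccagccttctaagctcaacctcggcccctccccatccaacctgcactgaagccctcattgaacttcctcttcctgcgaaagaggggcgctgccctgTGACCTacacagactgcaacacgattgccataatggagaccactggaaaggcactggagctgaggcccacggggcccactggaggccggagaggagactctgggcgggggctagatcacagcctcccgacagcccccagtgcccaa
Hoxd8: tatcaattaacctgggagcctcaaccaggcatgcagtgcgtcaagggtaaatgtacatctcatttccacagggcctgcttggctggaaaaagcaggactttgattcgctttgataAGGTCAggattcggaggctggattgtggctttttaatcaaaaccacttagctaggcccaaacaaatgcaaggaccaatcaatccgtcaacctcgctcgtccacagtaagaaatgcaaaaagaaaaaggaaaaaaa
In Meox2 the capitals mark TATAAA, the core of a TATA box, read on the opposite strand, 29 bases before the start. In Hoxc4 and Hoxd8 they mark AGGTCA, the core of the element bound by many nuclear receptors, 146 bases before the start and on the opposite strand in Hoxc4, and 135 bases before it in Hoxd8.

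RefSeq promoters were found for 20 of the 35 members. TATAAA occurred in 12.4% and AGGTCA in 14% of all 32851 promoters of the same length. TAATTA, a core bound by many homeodomains, occurred in 4.84% of them and CACGTG, an E-box, in 6.02%, and neither letter string was found in the windows of Meox2, Hoxc4 or Hoxd8. The Meox2 window held 62% G and C with 12 CpG and the Hoxc4 window 62% with 8 CpG, against medians of 52.4% and 6 CpG over all promoters. The Hoxd8 window held 44.4% and 6 CpG. The matches describe these letters only.

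Levels are log2 values, and the scale has no detection call. Members whose mean over 14 arrays fell under the 40th percentile of all genes, a log2 value of 5.36, were treated as near the bottom, where changes are compressed. By this rule 14 HOX genes lay above the bottom and 21 members near it, among them Meox1, Meox2 and Hoxc4. Meox2 and Hoxc4 fall there as a mean over all arrays: each was above 5.36 in some or all of the control arrays. The genes above the bottom were spread over all clusters, with 5 of 9 measured genes of cluster A, 4 of 9 of cluster B, 2 of 7 of cluster C and 3 of 8 of cluster D. By paralog group they were 7 of 10 genes in groups 1 to 4, 4 of 9 in groups 5 to 8 and 3 of 14 in groups 9 to 13. A threshold at the 25th percentile left 11 members near the bottom and 1 at the 50th percentile 26.

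Among the anterior groups 1 to 4, Hoxa2, a hindbrain and neural crest gene, averaged 8.23 ± 0.24 (SD) in control and 8.15 ± 0.15 in knockdown cells at day 0 (n = 3), and 8.70 ± 0.13 and 8.46 ± 0.08 at day 7 (n = 4). Hoxb2 averaged 5.90 ± 0.28 and 5.60 ± 0.16 at day 0, and 6.14 ± 0.38 and 6.51 ± 0.35 at day 7. Hoxd3, a gene of the neck vertebrae, averaged 8.06 ± 0.43 and 8.48 ± 0.70 at day 0, and 8.09 ± 0.48 and 8.43 ± 0.28 at day 7. For these genes control and knockdown means lay within 0.42 of each other on each day. Hoxb4, known from blood stem cells, averaged 8.56 ± 0.16 and 8.42 ± 0.26 at day 0, and 8.60 ± 0.10 and 8.89 ± 0.28 at day 7. Hoxa4 averaged 6.44 ± 0.20 and 5.86 ± 0.33 at day 0, and 6.88 ± 0.44 and 7.41 ± 0.41 at day 7. Knockdown cells were thus lower than control cells in mean Hoxa4 at day 0 and higher at day 7, and neither difference passed the test.

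Among the trunk groups 5 to 8, Hoxa5, a gene of lung and fat depots, averaged 7.81 ± 0.38 in control and 7.93 ± 0.47 in knockdown cells at day 0, and 8.02 ± 0.29 and 7.57 ± 0.10 at day 7. Hoxc6 averaged 6.01 ± 0.08 and 5.99 ± 0.15 at day 0, and 5.91 ± 0.14 and 5.66 ± 0.11 at day 7. Hoxa7 averaged 6.45 ± 0.21 and 6.63 ± 0.12 at day 0, and 6.39 ± 0.16 and 6.46 ± 0.17 at day 7. None of them passed the test between lines on either day. Of the posterior groups 9 to 13, Hoxb9 averaged 6.36 ± 0.17 and 5.75 ± 0.48 at day 0, and 5.59 ± 0.17 and 5.67 ± 0.18 at day 7. Hoxc13, best known from hair and nails, averaged 8.07 ± 0.22 and 7.85 ± 0.32 at day 0, and 7.47 ± 0.55 and 7.86 ± 0.45 at day 7.

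The remaining genes above the bottom are given array by array, since they were the HOX genes with the highest means. Hoxd8, a trunk gene of cluster D, read 11.82, 11.82 and 11.83 in control and 12.15, 12.11 and 11.97 in knockdown arrays at day 0, for replicates 1 to 3. Its day 7 values were 11.98, 11.89, 11.56 and 11.81 in control and 12.20, 12.17, 12.01 and 12.12 in knockdown arrays, for replicates 1 to 4. Knockdown arrays were higher on both days without overlap, by 0.25 (95% interval 0.02 to 0.48, adjusted p = 0.278) and 0.32 (0.12 to 0.52, adjusted p = 0.0586), and neither difference passed the test. With the replicate number as a block the day 7 difference of Hoxd8 passed (adjusted p = 0.0339), as it did without knockdown replicate 3 (0.36, adjusted p = 0.0306). Hoxd9, its neighbour and a limb gene, read 11.24, 11.22 and 11.55 in control and 11.64, 11.66 and 11.42 in knockdown arrays at day 0. The day 7 values were 11.09, 11.15, 10.68 and 11.30 in control and 11.54, 11.47, 11.11 and 11.62 in knockdown arrays. The knockdown array was the higher of each pair of the same number at day 7 and in 2 of 3 pairs at day 0, but the groups overlapped. The differences of Hoxd9 were 0.24 (-0.13 to 0.61, adjusted p = 0.569) and 0.38 (0.06 to 0.70, adjusted p = 0.14). With pairs within a day as a block the day 7 difference had an adjusted p of 0.0465, and without knockdown replicate 3 it was 0.49 (adjusted p = 0.0367).

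Hoxb3, a neck and hindbrain gene, read 9.74, 9.74 and 9.91 in control and 9.64, 9.39 and 9.51 in knockdown arrays at day 0, lower in knockdown cells without overlap. At day 7 it read 9.29, 9.31, 8.79 and 9.19 in control and 9.20, 9.19, 9.01 and 9.57 in knockdown arrays, and the groups overlapped. The differences of Hoxb3 were -0.29 (-0.63 to 0.06) and 0.10 (-0.20 to 0.40). Hoxa3, its paralog in cluster A, read 9.37, 9.29 and 8.93 in control and 9.31, 9.19 and 8.50 in knockdown arrays at day 0. Values at day 7 were 9.27, 9.27, 9.29 and 9.12 in control and 8.98, 9.20, 9.28 and 9.17 in knockdown arrays. Replicate 3 was the lowest array of both day 0 groups, and control and knockdown values of Hoxa3 overlapped on both days.

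**Figure D1:**
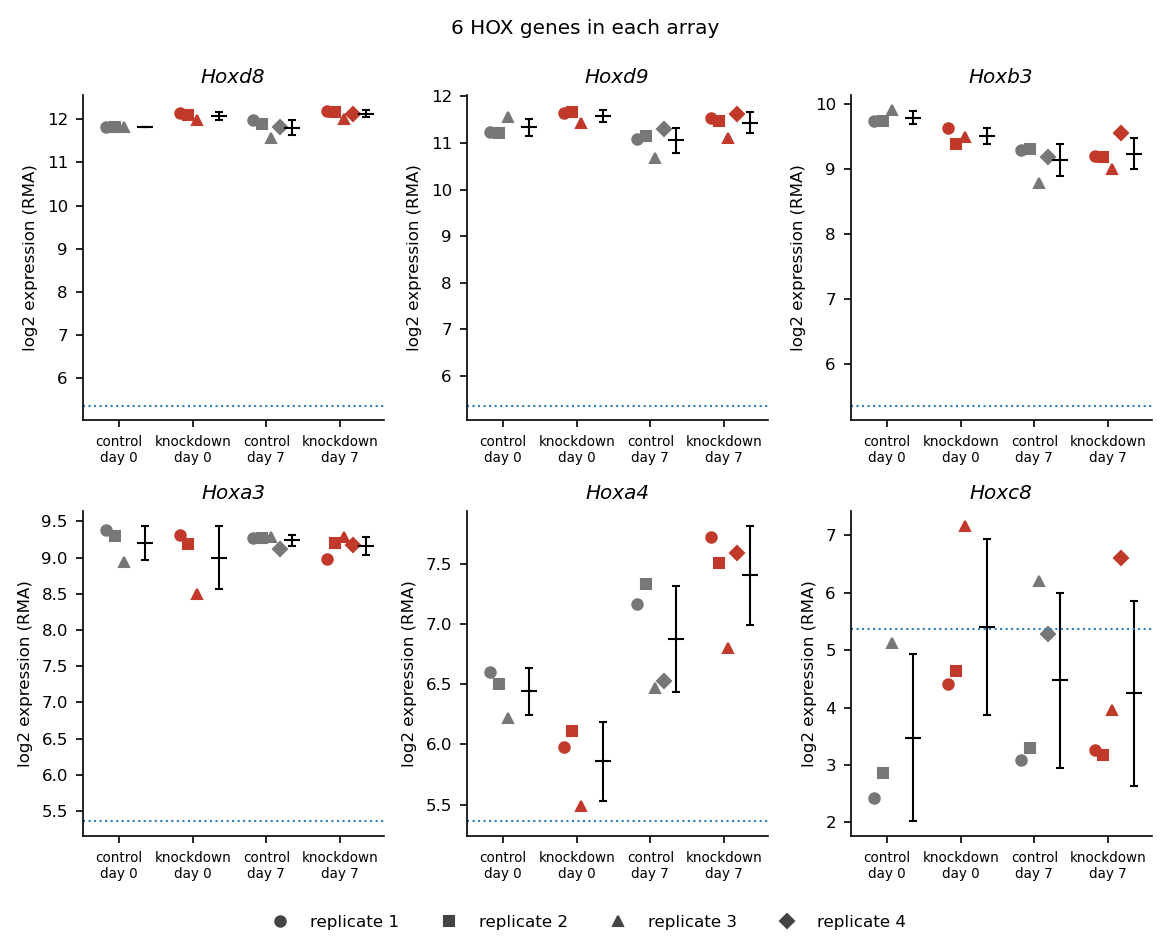
Log2 expression (RMA) of Hoxd8, Hoxd9, Hoxb3, Hoxa3, Hoxa4 and Hoxc8 in each array, by group, with the replicate number as the symbol, the group mean and SD as bars, and the bottom threshold of 5.36 as a dotted line. Hoxd8 was higher in all knockdown arrays of each day, the groups of Hoxd9 and Hoxa3 overlapped, and Hoxc8 was spread by more than 2 log2 units within each group.

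The first comparison asked whether the positional code of preadipocytes differed between TP53INP2 knockdown and control cells before differentiation. Meox2 fell to 4.14% of its control level and Hoxc4 to 39.3%, and no member rose. These were 2 of 35 members (5.71%) at an adjusted p under 0.05, against 1.8% of all genes tested in either direction and 1.34% lower. Meox2 was the marker named with the set, which was proposed with earlier results known, so its call is no independent support. Of the HOX genes alone, 1 of 33 was called. All 14 HOX genes above the bottom missed the threshold, and the lowest adjusted p among them was 0.168, for Hoxb9. Of all 10916 genes above the bottom, 272 passed it. An unadjusted p under 0.05 was held by 2 of the 14, against 2146 of the 10916. Their median difference was -0.12, from -0.61 for Hoxb9 to 0.42 for Hoxd3, against -0.05 for all genes above the bottom. The median size of their differences, without sign, was 0.23, against 0.16 for those genes. Their median SE was larger too, 0.177 against 0.147. No 95% interval among them reached beyond 1.19 in either direction. These intervals hold per gene in the fit without a block, and larger changes are not excluded. The groups did not overlap for 7 of 35 members (20%), against 22.6% of all genes: Hoxd8 was higher in knockdown cells (6.89% of all genes were), and Hoxa4, Hoxb3, Hoxb9, Hoxc4, Hoxd1 and Meox2 were lower (15.7%).

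The second comparison asked the same at day 7. Meox2 fell to 10.4% and Hoxc4 to 42.5% of the control level, and Hoxd1, which lies at the very bottom of the scale, rose to 131%. These 3 of 35 members (8.57%), Meox2 among them, compare with 6.58% of all genes called at day 7, 3.01% higher and 3.57% lower. Of the HOX genes alone, 2 of 33 were called. None of the 14 HOX genes above the bottom passed (lowest adjusted p 0.0586, for Hoxd8), against 1074 of all 10916 genes above the bottom. An unadjusted p under 0.05 was held by 5 of the 14, against 3581 of the 10916, a similar share. Their median difference was 0.19, from -0.45 for Hoxa5 to 0.53 for Hoxa4, against 0.00 for all genes above the bottom. Their median size was 0.30 against 0.19, and their median SE 0.154 against 0.127. No 95% interval among them reached beyond 1.05. The groups did not overlap for 5 members (14.3%), against 13% of all genes: Hoxd1 and Hoxd8 were higher (6.02% of all genes) and Hoxc4, Hoxc5 and Meox2 lower (6.96%). The count of members called at day 7 rested on single arrays: without knockdown replicate 3 it was 8, with Hoxa4, Hoxb4, Hoxd8, Hoxd9 and Hoxd10 added, while 15.9% of all genes were called. Without knockdown replicate 4 it was 1, Meox2, with 2.53% of all genes called. Knockdown replicate 3 had the lowest mean of the adipocyte markers in its group (10.7, against 11.7 to 11.9), and its part in these counts was not tested.

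Same-numbered control and knockdown samples deviated together within each day, so the fits with the replicate number as a block are given beside these counts. At day 7 replicate 1 of a line and replicate 2 of the other deviated together as much, so the number does not separate these 2. With the number as a block over both days, 1 member (Meox2) was called at day 0 and 4 at day 7, where Hoxa4 (0.53, adjusted p = 0.0481) and Hoxd8 joined Hoxc4 and Meox2, and Hoxd1 dropped out. With pairs within a day as a block, which was chosen after the data had been seen, 2 members (Hoxc4 and Meox2) were called at day 0 and 5 at day 7, Hoxa4 (adjusted p = 0.0457), Hoxd8, Hoxd9, Hoxc4 and Meox2. A second probe set of Hoxa4 differed by -0.03 at day 7 (adjusted p = 0.951 over all probe sets, no block). The blocked fits called more of all genes too, 3.14% and 4.64% at day 0 and 10.2% and 14.7% at day 7. When replicates 1 and 2 of each group were averaged into 1 sample, limma called 0 of 35 members on either day, with 3 and 5 members at an unadjusted p under 0.05, and 0.132% and 0.352% of all genes.

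**Figure D2:**
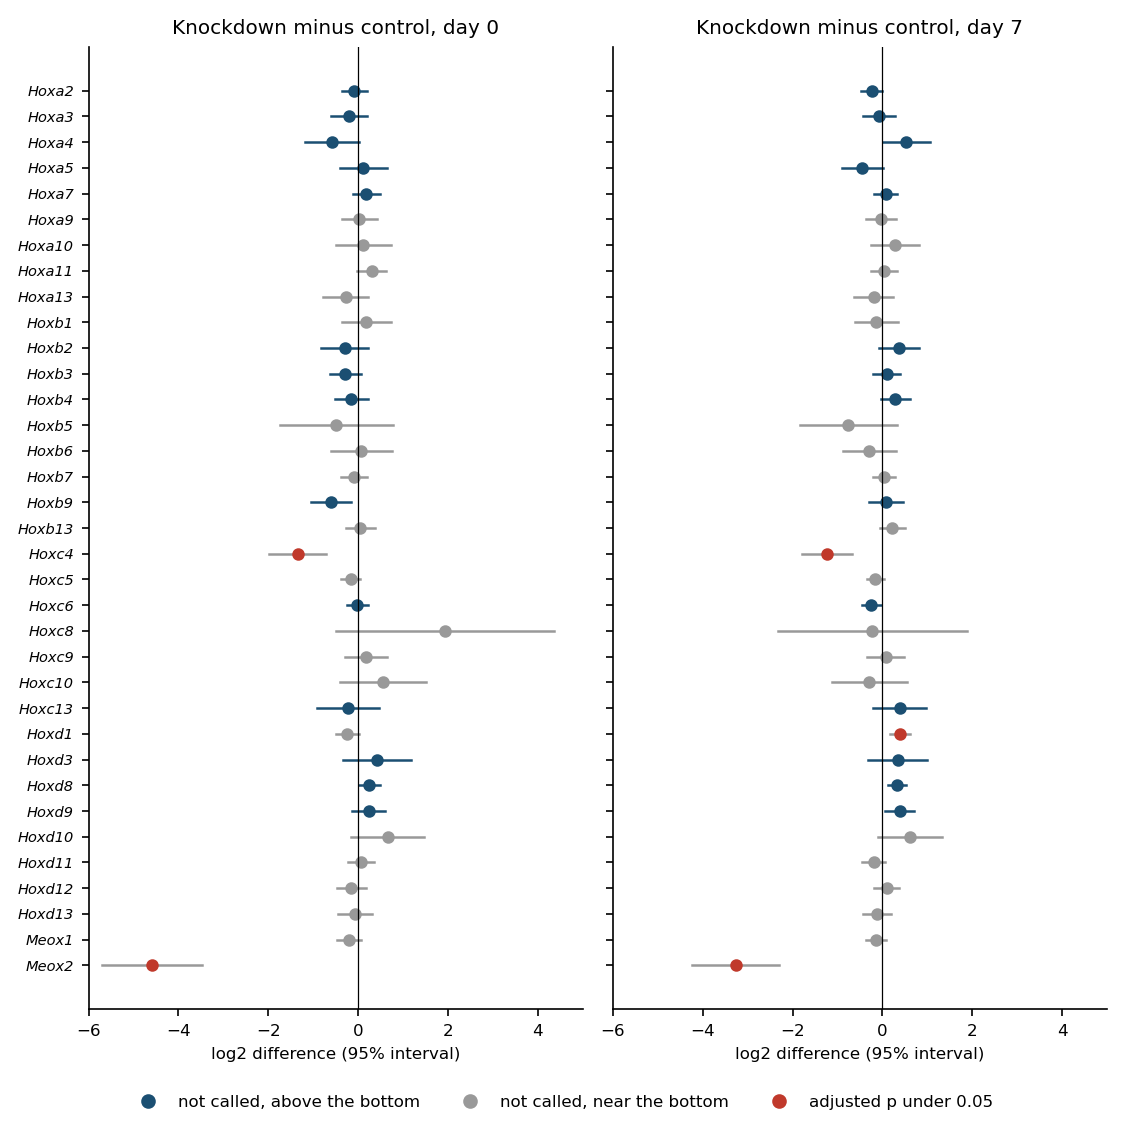
Log2 difference between knockdown and control cells for all 35 members at day 0 (left) and day 7 (right), with 95% intervals from the limma fit; red marks an adjusted p under 0.05, dark blue other members above the bottom of the scale and grey other members near it. Meox2 and Hoxc4 lie to the left of 0 on both days, while the 14 genes above the bottom lie between -0.61 and 0.53.

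By cluster, the median difference at day 0 was 0.03 in cluster A, -0.15 in B, -0.02 in C and 0.15 in D. At day 7 it was -0.03 in cluster A, 0.09 in B, -0.22 in C and 0.33 in D. Within cluster D, described after its values had been seen, Hoxd3, Hoxd8, Hoxd9 and Hoxd10 were above 0 on both days, with values from 0.24 to 0.66 at day 0 and from 0.32 to 0.61 at day 7. None of these passed the test in the main fit. Alternative fits called them at day 7. Hoxd3 was called with the beta-actin covariate (15.4% of all genes called). Hoxd8, Hoxd9 and Hoxd10 were called without knockdown replicate 3 (15.9%). Hoxd10 lay near the bottom, with a mean of 4.86 over all arrays. The genes to the 5' side, Hoxd11, Hoxd12 and Hoxd13, which lay near the bottom too, stood between -0.19 and 0.10. Hoxd1, at the very bottom of the scale, differed by -0.24 at day 0 and by 0.39 at day 7, where it was called. By position along the axis, the median difference was -0.22 at day 0 and 0.19 at day 7 for groups 1 to 4, 0.07 and -0.22 for groups 5 to 8, and 0.06 and 0.08 for groups 9 to 13. Of the HOX genes, 1 was called at day 0 (Hoxc4) and 2 at day 7 (Hoxc4 and Hoxd1), all in groups 1 to 4. So few calls cannot show how calls spread over clusters or position.

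**Figure D3:**
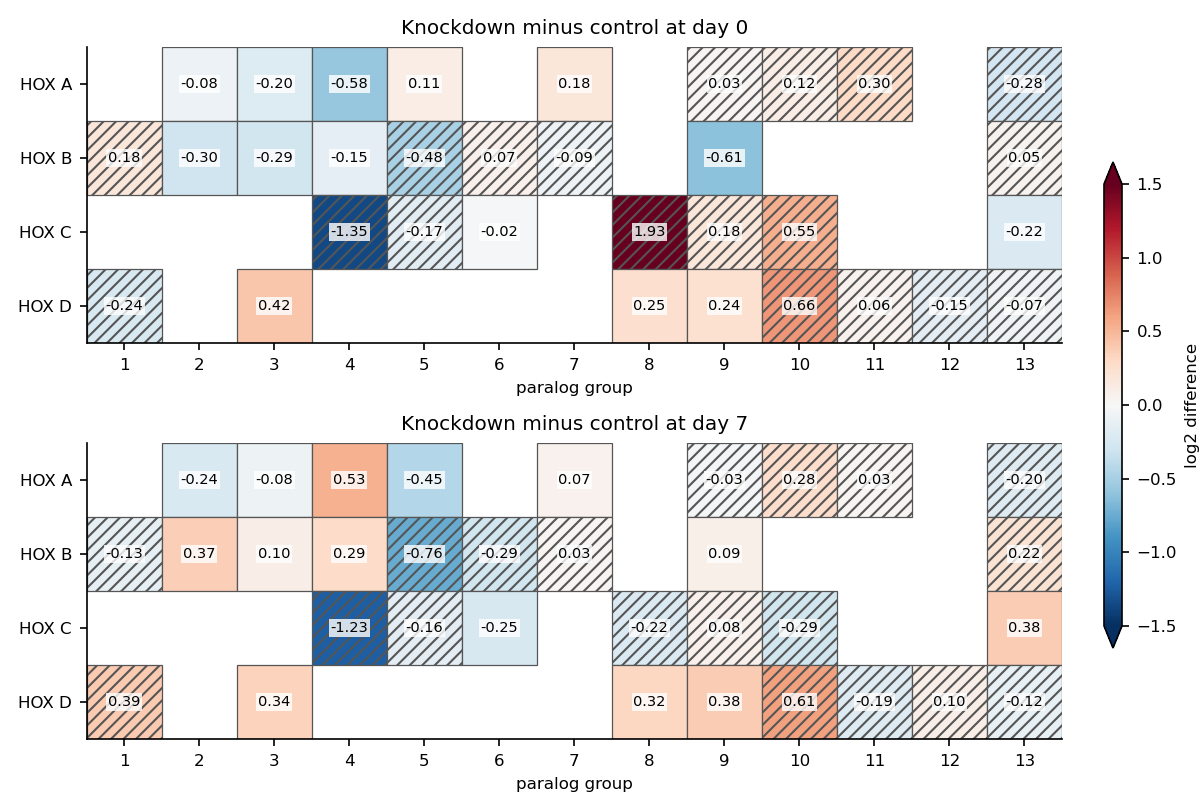
Log2 difference between knockdown and control cells of each measured HOX gene, laid out by cluster (rows) and paralog group (columns), at day 0 (top) and day 7 (bottom), with the value in the box, blue for lower and red for higher in knockdown cells, and hatching for genes near the bottom of the scale. Hoxc4 is the darkest blue box on both days (-1.35 and -1.23), with Hoxc5 and Hoxc6 beside it between -0.25 and -0.02, and the dark red box of Hoxc8 at day 0 (1.93) was not called.

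Meox2 read 7.52, 6.72 and 6.90 in control arrays and 2.16, 2.91 and 2.28 in knockdown arrays at day 0. At day 7 it read 6.0, 6.04, 7.02 and 6.34 in control arrays and 2.53, 2.54, 4.71 and 2.55 in knockdown arrays. Every knockdown array lay below every control array of its day, and all but knockdown replicate 3 of day 7 lay below 3 on this scale. The log2 difference was -4.59 ± 0.51 (SE, 95% interval -5.70 to -3.48, adjusted p = 0.000861) at day 0 and -3.27 ± 0.44 (-4.23 to -2.31, adjusted p = 0.00178) at day 7. RMA compresses changes towards the bottom of the scale, where the knockdown arrays lie, so these sizes may be understated. The difference between the days, 1.32 (-0.15 to 2.79, adjusted p = 0.436), did not pass the test.

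A second probe set of Meox2 read 6.36, 5.30 and 5.76 in control and 3.40, 2.96 and 2.57 in knockdown arrays at day 0. On day 7 the values were 4.13, 4.15, 5.49 and 4.74 in control and 3.05, 3.35, 3.90 and 2.46 in knockdown arrays. It separated the groups on both days too. Its differences were -2.83 (adjusted p = 0.005 over all probe sets) and -1.44 (adjusted p = 0.048). The call of Meox2 was lost when replicates 1 and 2 were averaged, with -4.60 (adjusted p = 0.0671) and -3.20 (adjusted p = 0.0677). With the beta-actin 3' to 5' difference as a covariate, chosen after the data had been seen, Meox2 differed by -5.41 (adjusted p = 0.00168) and -3.57 (adjusted p = 0.000708). Without knockdown replicate 3 the day 7 difference was -3.81. Muscle markers, relevant to Meox2, averaged 3.30 to 3.54 at day 0 and 3.39 to 3.92 at day 7 over 10 genes, and only Des, an intermediate filament gene, was called between lines, higher in knockdown cells at day 7 (0.61 ± 0.16, adjusted p = 0.0440, lost in 13 of 25 alternatives).

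Meox1, the other gene of the family, stayed at the bottom of the scale in all 14 arrays. It read 2.53, 2.46 and 2.79 in control and 2.35, 2.29 and 2.56 in knockdown arrays at day 0, and 2.52, 2.55, 2.53 and 2.49 against 2.53, 2.16, 2.53 and 2.30 at day 7. Its groups overlapped on both days, with differences of -0.20 (-0.46 to 0.07, adjusted p = 0.495) and -0.14 (-0.37 to 0.09, adjusted p = 0.468). A change below the bottom of the scale would not show in these values.

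Hoxc4, the first gene of cluster C, is known from the neck and upper chest. Its single probe set read 5.83, 5.29 and 6.38 in control and 4.34, 4.13 and 4.98 in knockdown arrays at day 0. At day 7 it read 5.31, 5.37, 5.0 and 5.15 in control and 4.24, 4.41, 3.56 and 3.70 in knockdown arrays. The groups did not overlap on either day. The difference was -1.35 ± 0.30 (SE, 95% interval -1.99 to -0.71, adjusted p = 0.0403) at day 0 and -1.23 ± 0.26 (-1.79 to -0.68, adjusted p = 0.0173) at day 7. The difference between the days was 0.11 (adjusted p = 0.927). At day 0 the call was lost with the replicate number as a block over both days (adjusted p = 0.0554), with the beta-actin covariate (-1.39, adjusted p = 0.0766), in a fit of the day 0 groups alone (adjusted p = 0.127) and after averaging replicates 1 and 2 (adjusted p = 0.371), and was kept with pairs within a day as a block (adjusted p = 0.00387). Nor did it hold without control day 0 replicate 1 (-1.35) or 3 (-1.08), without knockdown day 0 replicate 1 (-1.28) or 2 (-1.17), or without control day 7 replicate 1, 2 or 4 or knockdown day 7 replicate 1, with adjusted p from 0.0509 to 0.158. At day 7 the call was lost without knockdown replicate 4 (-1.14, adjusted p = 0.0549) and after averaging replicates 1 and 2 (-1.30, adjusted p = 0.13).

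The neighbours of Hoxc4 in cluster C, given after their values had been seen, lay closer to 0. Hoxc5 differed by -0.17 and -0.16 and Hoxc6 by -0.02 and -0.25, and neither was called. The paralogs of Hoxc4 in the other clusters, Hoxa4 (-0.58 and 0.53) and Hoxb4 (-0.15 and 0.29), were lower in mean at day 0 and higher at day 7, and were not called.

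**Figure D4:**
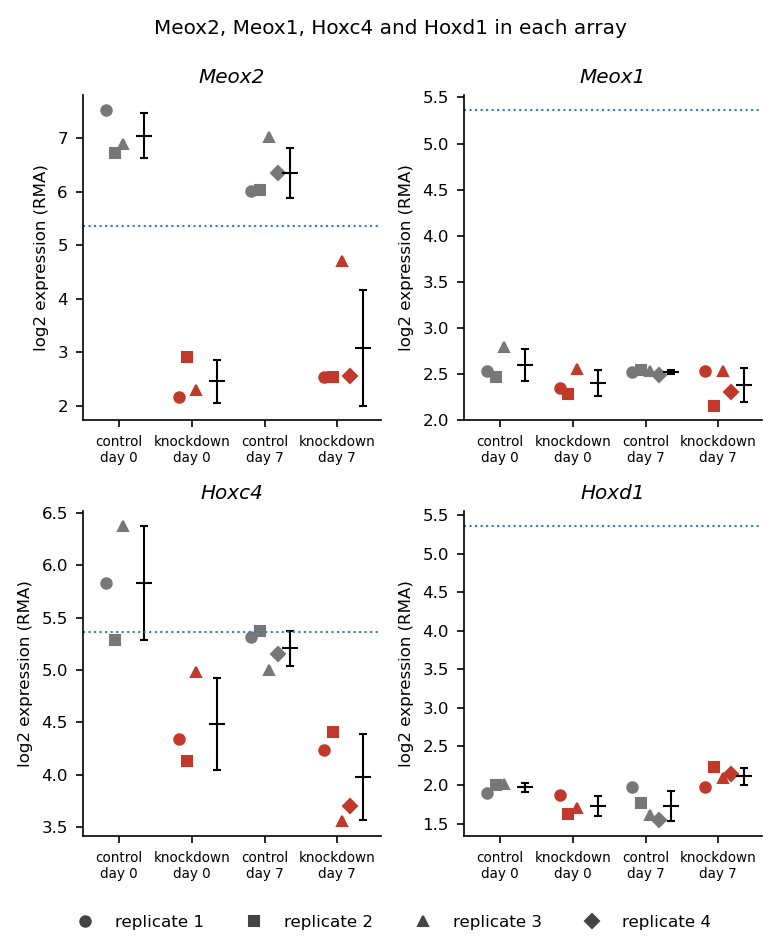
Log2 expression (RMA) of Meox2, Meox1, Hoxc4 and Hoxd1 in each array, by group, with the replicate number as the symbol, the group mean and SD as bars, and the bottom threshold of 5.36 as a dotted line. All knockdown arrays of Meox2 and Hoxc4 lie below the control arrays of their day, with knockdown replicate 3 of day 7 at 4.71 for Meox2, while Meox1 and Hoxd1 lie below 2.8 in all arrays.

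Hoxd1, an early anterior gene, had the lowest mean of all members, at the 0.742 percentile of all genes. It read 1.90, 2.00 and 2.01 in control and 1.87, 1.62 and 1.70 in knockdown arrays at day 0, and 1.98, 1.77, 1.60 and 1.54 against 1.98, 2.24, 2.10 and 2.14 at day 7. Knockdown arrays were lower at day 0 and higher at day 7, each without overlap. The day 0 difference, -0.24 (-0.50 to 0.02, adjusted p = 0.371), did not pass, and the day 7 difference, 0.39 ± 0.10 (SE, 0.17 to 0.62, adjusted p = 0.043), did. The day 7 call was lost in 17 of 24 alternatives, with adjusted p up to 0.151, among them both blocked fits (0.0505 and 0.0577). Leaving out any 1 array other than control replicate 1 or knockdown replicate 3 of day 7 or knockdown replicate 3 of day 0 ended it, with differences from 0.33 to 0.44. The difference between the days, 0.63 (adjusted p = 0.139), did not pass either.

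The other 17 HOX genes near the bottom were not called in any of the 5 comparisons, with 1 probe set a gene and no block. Hoxa10, named after its values had been seen, was called with its probe sets averaged, at day 7 (0.49, adjusted p = 0.028) and over time in knockdown cells (0.54, adjusted p = 0.00324). Its second probe set, also near the bottom, rose by 0.84 over time in knockdown cells (adjusted p = 0.015 over all probe sets). Hoxc8 and Hoxb5 stood out among them by their spread, and were chosen for description after their values had been seen. Hoxc8, a trunk gene, read 2.42, 2.86 and 5.13 in control and 4.41, 4.64 and 7.16 in knockdown arrays at day 0. At day 7 it read 3.09, 3.29, 6.21 and 5.29 in control and 3.25, 3.18, 3.95 and 6.61 in knockdown arrays. Replicate 3 was the highest array of 3 of the 4 groups, and replicates 1 and 2 were the lowest in all 4. Without a block the differences of Hoxc8 were 1.93 ± 1.12 (SE) and -0.22 ± 0.97, and their 95% intervals cover 0. At day 0 the knockdown array was higher in each same-numbered pair, by 1.98, 1.78 and 2.04, while the day 7 pairs differed by 0.16, -0.11, -2.26 and 1.32. The day 0 difference had an adjusted p of 0.454 without a block, 0.0761 with the replicate number as a block and 0.0906 with pairs within a day as a block. Hoxb5, at -0.48 (-1.73 to 0.77) and -0.76 (-1.84 to 0.32), was spread by an SD of 1.42 among the day 0 control arrays.

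The third comparison asked whether the effect of knockdown differed between day 0 and day 7. limma called 0 of 35 members, against 0.022% of all genes. An unadjusted p under 0.05 was held by 3 members, against 2403 of all 18193 genes. These members were Hoxa4 (1.11, adjusted p = 0.236), Hoxb9 (0.70, adjusted p = 0.295) and Hoxd1. For each of them the knockdown difference was negative at day 0 and positive at day 7. For Hoxb9 the day 0 difference was -0.61 (-1.05 to -0.17, adjusted p = 0.168) and the day 7 difference 0.09 (-0.30 to 0.47).

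The comparisons over time show how far the HOX genes moved when the cells became fat cells. In control cells 3 of 35 members (8.57%) were called, against 22.9% of all genes, 10.1% higher and 12.8% lower. More of the members than of all genes lay near the bottom, where few genes were called. Above the bottom the counts were 3 of 14 HOX genes and 3800 of all 10916 genes. Hoxa2 rose from 8.50, 8.13 and 8.05 to 8.82, 8.78, 8.54 and 8.68, by 0.48 (adjusted p = 0.0112). Hoxb3 fell by 0.65 (adjusted p = 0.00704) and Hoxb9 by 0.78 (adjusted p = 0.0106), from 6.56, 6.26 and 6.27 to 5.61, 5.35, 5.62 and 5.76. The arrays of the 2 days did not overlap for any of these genes, nor for Hoxc13. That is 11.4% of members, against 32.8% of all genes. A second probe set of Hoxb3 differed by -0.11 and did not pass. The call of Hoxb3 was lost with its probe sets averaged (-0.38, adjusted p = 0.0969) and after averaging replicates 1 and 2 (-0.73, adjusted p = 0.0602). The call of Hoxa2 was lost without control day 0 replicate 2 (0.43, adjusted p = 0.0531) or 3 (0.39, adjusted p = 0.0567), and that of Hoxb9 without control day 0 replicate 1 (-0.68, adjusted p = 0.0541). Meox2 differed by -0.69 (-1.73 to 0.35) over time in control cells and Hoxc4 by -0.62 (-1.22 to -0.03, adjusted p = 0.133), neither called.

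In knockdown cells 5 of 35 members (14.3%) were called over time, against 35.8% of all genes, 19% higher and 16.8% lower. Above the bottom the counts were 4 of 14 HOX genes and 5870 of all 10916 genes. Hoxa4 rose by 1.55 ± 0.26 (SE, adjusted p = 0.00048), from 5.97, 6.12 and 5.49 to 7.72, 7.51, 6.80 and 7.59. Hoxb2 rose by 0.91 (adjusted p = 0.00624), from 5.43, 5.74 and 5.64 to 6.79, 6.75, 6.03 and 6.46. Both genes were higher in every day 7 array than in any day 0 array, and the days did not overlap for 5 members (14.3%), against 39.3% of all genes. In addition, a second probe set of Hoxa4 rose by 0.74 (adjusted p = 0.00964 over all probe sets). Hoxb4 rose by 0.47 (adjusted p = 0.0329) with overlapping arrays, Hoxd1 by 0.38 (adjusted p = 0.0167), and Hoxc6 fell by 0.33 (adjusted p = 0.0267). The call of Hoxb4 was lost without knockdown replicate 1 or 2 of either day or replicate 4 of day 7 (0.34 to 0.47, adjusted p from 0.0622 to 0.156), in 10 of 23 alternatives in all. That of Hoxc6 was lost without knockdown replicate 1 or 3 of day 0 or 2 or 3 of day 7 (-0.25 to -0.33, adjusted p from 0.0592 to 0.131), in 12 of 23 alternatives in all. From its most variable probe set the change of Hoxc6 was -0.06 (adjusted p = 0.871), and with its probe sets averaged -0.12 (adjusted p = 0.361). Hoxd1 was lost without knockdown replicate 2 of day 0 (0.33) or day 7 (0.34, adjusted p = 0.0739 and 0.05). The genes called in the 2 lines were different ones, but no member passed the test of the difference between lines, given as the third comparison. Meox2 differed by 0.63 (-0.41 to 1.67, adjusted p = 0.359) over time in knockdown cells.

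**Figure D5:**
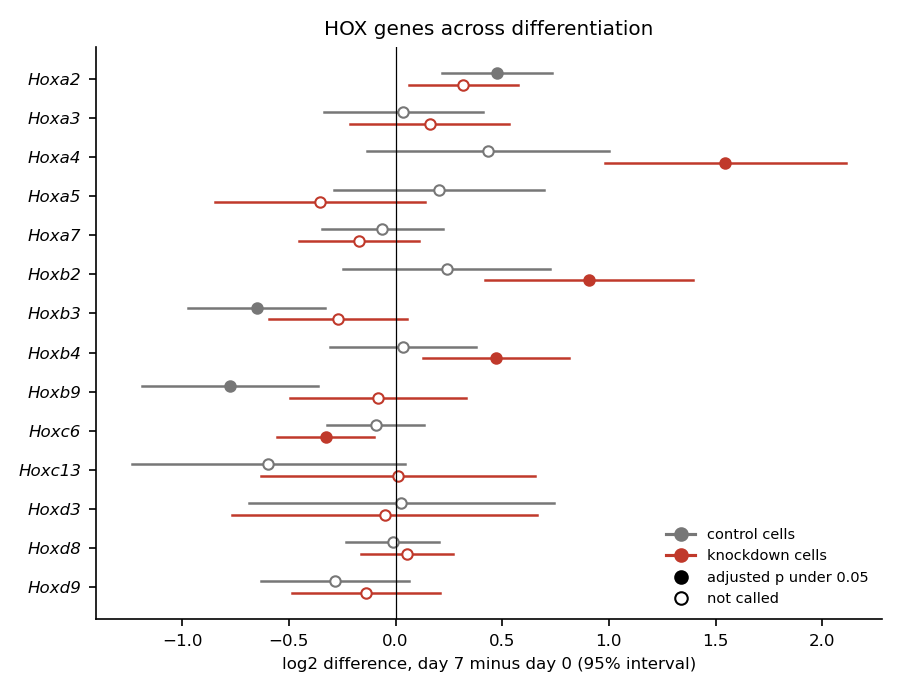
Log2 difference between day 7 and day 0 for the 14 HOX genes above the bottom of the scale, in control (grey) and knockdown cells (red), with 95% intervals from the limma fit and filled symbols for an adjusted p under 0.05. Hoxa2, Hoxb3 and Hoxb9 are filled in control cells, and Hoxa4, Hoxb2, Hoxb4 and Hoxc6 in knockdown cells, with Hoxa4 at 1.55 the largest.

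Genes that work with or on the HOX genes were read from lists. Their counts stand beside those of all 18193 genes, of which 1.8% were called at day 0 and 6.58% at day 7. An unadjusted p under 0.05 was held by 2808 of all genes at day 0 and 4273 at day 7. HOX proteins bind DNA with cofactors of the TALE class, the PBX and MEIS families, and 10 of the 11 listed were measured, all above the bottom. Pbx2 was lower in knockdown cells at day 0 (-0.63 ± 0.09, SE, adjusted p = 0.00596) and at day 7 (-0.66 ± 0.08, adjusted p = 0.00102), from 10.47 to 9.84 and from 10.69 to 10.03 in mean. Meis2 was lower at day 7 (-0.70 ± 0.10, adjusted p = 0.00178) and differed by 0.09 at day 0. The other 9 cofactors at day 0 and 8 at day 7 did not pass, and the medians of the list were -0.18 and -0.14, against -0.05 and -0.02 for all genes. The day 0 call of Pbx2 was lost when its probe sets were averaged (-0.31, adjusted p = 0.252), and that of Meis2 at day 7 when each gene was read from its most variable probe set, by interquartile range (-0.31, adjusted p = 0.376). Both were also lost after averaging replicates 1 and 2 (adjusted p = 0.13 and 0.0534).

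Polycomb and trithorax proteins hold HOX clusters silent or active, and 35 of 36 listed genes were measured. At day 0 limma called 0 of 35 (7 had an unadjusted p under 0.05), and at day 7 it called Phc3, a Polycomb subunit, lower (-0.33 ± 0.09, adjusted p = 0.0489), a call lost in 16 of 25 alternatives. Ezh2, the methyltransferase of Polycomb complex PRC2, was not called and is named after its values had been seen. It differed by -0.65 at day 0 (adjusted p = 0.0811) and 0.05 at day 7. The medians of the list were -0.10 and -0.01, against -0.05 and -0.02 for all genes. Of 12 measured genes that act upstream of HOX expression in the embryo, Rarg, a retinoic acid receptor, was lower at day 7 (-0.77 ± 0.15, adjusted p = 0.0138) and no other passed. That call was lost in 5 of 25 alternatives, among them its most variable probe set (-0.15, adjusted p = 0.754), its probe sets averaged (-0.46, adjusted p = 0.11) and knockdown replicate 1 left out (-0.69, adjusted p = 0.0519).

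Of 45 measured genes for other positional and mesenchymal patterning factors, Emx2, a homeobox gene of the forebrain and shoulder girdle, was lower in knockdown cells at day 0 (-0.67 ± 0.11, adjusted p = 0.0077) and at day 7 (-0.46 ± 0.09, adjusted p = 0.014). At day 7, Tbx15 (-0.39), Shox2 (-0.48), Prrx1 (-0.40) and Alx4 (-0.40), limb and skeleton genes, were lower too, with adjusted p from 0.0156 to 0.0437. The day 0 call of Emx2 was lost after averaging replicates 1 and 2 (adjusted p = 0.212). None of the 45 genes was called higher on either day, and 44 at day 0 and 40 at day 7 did not pass. Few of all genes were called higher either, 3.01% at day 7, with 3.57% lower. At day 0, 1.8% of all genes were called and 1.34% were lower. The day 7 calls were lost in 15 of 25 alternatives for Tbx15, 15 for Shox2 and 6 for Prrx1, in 10 of 24 for Alx4 and in 4 of 25 for Emx2, single arrays among them. Those of Tbx15, Shox2 and Prrx1 were also lost from their most variable probe sets. Averaging probe sets ended those of Tbx15 and Shox2. Over the limma alternatives Tbx15 ranged from -0.45 to -0.09 (adjusted p up to 0.788) and Shox2 from -0.59 to -0.33 (up to 0.229). Of 9 measured preadipocyte and fibroblast markers, Pdgfra, a receptor gene, was called lower at day 7 as well (-0.49 ± 0.13, adjusted p = 0.0436, lost in 16 of 25 alternatives). The other 8 did not pass. The median of these markers at day 7 was -0.40, and 1 of the 9, Zfp423, was higher in mean in knockdown cells. At day 7 the adipocyte markers were higher in the mean in knockdown cells for 9 of 9 genes, with a median of 1.22 and 0 called by limma (5 had an unadjusted p under 0.05), and their part in the day 7 differences was not tested.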

How the data were processed

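Total RNA of 14 samples was measured on 1-colour expression arrays. The deposited table gives a log2 expression value for each probe set on each array, made by the authors with RMA and the affy package, per the submitters' processing notes; the sources used here do not give their versions. The base of the logarithm was inferred from the values, which ran from 1.13 to 14.37, and array medians lay between 5.44 and 5.57. Of 45101 probe sets, 64 controls were left out, 34945 carried 1 symbol, 932 several and 9160 are unnamed here. RMA compresses changes of dim genes, and precision is limited by the number of arrays. All 14 arrays entered 1 limma 3.58.1 model in R 4.3.3 with a mean per group (lmFit and eBayes, 12.6 degrees of freedom). The code was also run on simulated arrays with independent noise. These lack the shared deviations and close replicates of the data, so that run does not check the calls made here. Calls were made at an adjusted p under 0.05 (Benjamini-Hochberg, 18193 genes); fold changes are differences of log2 values, and intervals are 95%. Members above the 40th percentile, or called, are named. Members and lists were chosen with earlier results of these data known. Within a day, deviations of same-numbered control and knockdown samples correlated at 0.21, 0.187 and 0.331 for day 0. For day 7 they correlated at 0.434, 0.478, 0.59 and 0.389. Replicate 1 of a line with replicate 2 of the other gave 0.0755 and 0.148 at day 0 and 0.467 and 0.487 at day 7. Pairing of 1 with 1 and 2 with 2 is thus not shown. The other unlike pairs ran from -0.283 to -0.194 at day 0 and from -0.475 to -0.00627 at day 7. RefSeq names matched 35 of 35 members by gene ID.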

Additional observations from a re-analysis of the deposited data

Results flagged for a closer look

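In groups of 4 arrays, 4 values stood apart from the other arrays of their group by Dixon's criterion, of 70 groups tested; chance flags about 5% of groups. Meox2 read 4.71 in knockdown day 7 replicate 3, against 2.53 to 2.55 in the others. Hoxc13 read 6.66 in control day 7 replicate 4, against 7.68 to 7.85. Hoxa3 read 9.12 in the same array, against 9.27 to 9.29. Hoxa11, near the bottom of the scale, read 2.10 in knockdown day 7 replicate 3, against 2.5 to 2.56.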

How the results depend on the processing

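Of 35 members, 2 were called between lines at day 0. That count was 1 with the replicate block (3.14% of all genes called) and 1 with the 2 groups alone (1.14%). It was 0 with replicates 1 and 2 averaged (0.132%) and 1 to 2 when single arrays were left out (0.555% to 3.47%). Without dim genes, which leaves out Meox2, Hoxc4 and Hoxd1, limma called 0 members (4.56% of 10916 genes), and 2 had an unadjusted p under 0.05. At day 7 the count of 3 became 0 with replicates 1 and 2 averaged (0.352% of all genes called) and 1, Hoxd8, without dim genes (16.8% of 10916). It became 5 with the mean over probe sets (4.79%), 5 with the replicate block within a day (14.7%) and 7 with the beta-actin covariate (15.4%). The covariate fit also called Hoxd3 on both days. The day 7 count was 1 to 8 with single arrays left out (2.03% to 15.9%). The within-day block and the covariate were chosen after the data had been seen. Over time, the count of 3 in control cells became 1 with replicates 1 and 2 averaged (8.71% of all genes called). It was 2 to 4 with single arrays left out (16.5% to 25%). The count of 5 in knockdown cells became 2 with them averaged (22.5%), 3 with quantile normalization again (35.9%) and 3 with the 2 groups alone (31.4%). In these cells it was 2 to 6 with single arrays left out (30% to 37.9%). With the replicate block the time counts were 3 in control cells (25.2%), with the same genes, and 6 in knockdown cells (38.8%). The knockdown count lost Hoxb4 (adjusted p = 0.076) and Hoxc6 (adjusted p = 0.0538). It gained Hoxa2 (0.32, adjusted p = 0.0398), Hoxc8 (-1.68, adjusted p = 0.0215) and Hoxc10 (-0.86, adjusted p = 0.00551). Across days same-numbered samples correlated at 0.21, 0.136 and 0.192 in control and at 0.138, 0.177 and 0.0324 in knockdown cells. Samples of unlike number reached 0.179 in control and 0.3 in knockdown cells. Beyond the calls given with a block, the block changed no other call between lines of the members. For the difference between days limma called 0 members under all 22 alternatives (2 to 7 had an unadjusted p under 0.05), and no called value changed sign in any alternative. Meox2 ranged from -5.41 to -3.71 at day 0 and from -3.81 to -2.35 at day 7, and kept its call in 23 of 24 alternatives on each day. The cause of these changes was not tested, beyond fewer samples where replicates were averaged.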
